A study of Mus musculus with 45 samples.

Results

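The lowest-numbered pieces of 3 mouse embryos, sections 1 and 2 of an E5.25, an E5.5 and an E5.75 embryo, were compared with the 2 sections that follow them in each embryo. They were chosen by section number alone. They make up 6 columns of values from 7 of the 45 samples of the series, and the next sections (4 and 5 at E5.5, where section 3 is not analysed here, and 3 and 4 at the other 2 stages) make up 6 columns from 8 samples. The study examined expression along embryos shortly after implantation. Untreated embryos were freed from the decidua, the uterine tissue around them, frozen and cut, pieces were collected with a laser, and their RNA was read with Smart-seq2, which copies whole transcripts from little starting material. The labels name no strain or sex and, as far as they say, each stage is 1 embryo, so every p-value below measures the spread between sections and not between embryos. At E5.5 section 1 is 1 sample, while sections 2, 4 and 5 have parts A and B that the authors joined into 1 value each.

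At these stages the mouse embryo is a cup. Its distal end holds the epiblast, which forms the embryo proper, under a single layer of visceral endoderm, and the visceral endoderm at the distal tip is a signalling centre that later moves to the anterior side. That centre is known for the transcription factors Lhx1, Otx2 and Hhex and for secreted inhibitors of Nodal and Wnt signals such as Cer1, Lefty1, Dkk1 and Sfrp1. No label gives the end at which numbering began, so sections 1 and 2 are called the first sections here, and whether they hold the tip was read only from such markers.

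The first sections held few detected genes and much ribosomal precursor RNA. Over 8832 genes present in the tables of all 3 stages, the number with an FPKM (read fragments scaled to transcript length and library size) of at least 1 was 2179 and 2801 in E5.25 sections 1 and 2, 1795 and 3362 at E5.5, and 2769 and 3122 at E5.75. The next sections detected 4100 and 1960, 4110 and 4459, and 4772 and 4967 in the same order. The groups did not overlap at E5.5 or E5.75 but did at E5.25, where section 4 detected fewer genes than either first section. All later sections detected 5466 to 7206. The mean difference was −1390 genes (2671 ± 586 against 4061 ± 1087, SD over 6 columns each; exact permutation test within stages, 2-sided, p = 0.037, the smallest possible being 0.00926). Leaving out a single section ended this call in 5 cases: without E5.25 section 1 or 3 the exact p was 0.0648 or 0.0741, and without E5.5 section 1, 4 or 5 it was 0.0556. Without E5.25 section 4 the difference was −1747 (exact permutation test, p = 0.00926).

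E5.25 section 4 stands apart from the other next sections in more than its gene number. Rn45s, the 45S precursor of ribosomal RNA, made up 0.555% of its summed FPKM, against 9.54% in E5.25 section 3, 26.5% and 35.5% in E5.5 sections 4 and 5, and 7.42% and 9.51% in E5.75 sections 3 and 4. In the first sections of E5.25 the share was 26.2% and 23.7%, in those of E5.5 69.8% and 56.4%, and in those of E5.75 52.8% and 16.4%. At each stage both first sections lay above both next sections, a mean difference of 26.0 percentage points (40.9 ± 21.6% against 14.8 ± 13.3%, SD, n = 6 and 6; exact permutation test, 2-sided, p = 0.00926). That is the smallest p this design allows, and without E5.25 section 4 the difference was 24.5 points. The 10 highest genes of a column together took 60.7 ± 19.9% of the summed FPKM in the first sections and 27.5 ± 12% in the next (SD, n = 6 and 6; exact permutation test, 2-sided, p = 0.00926).

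**Figure D1:**
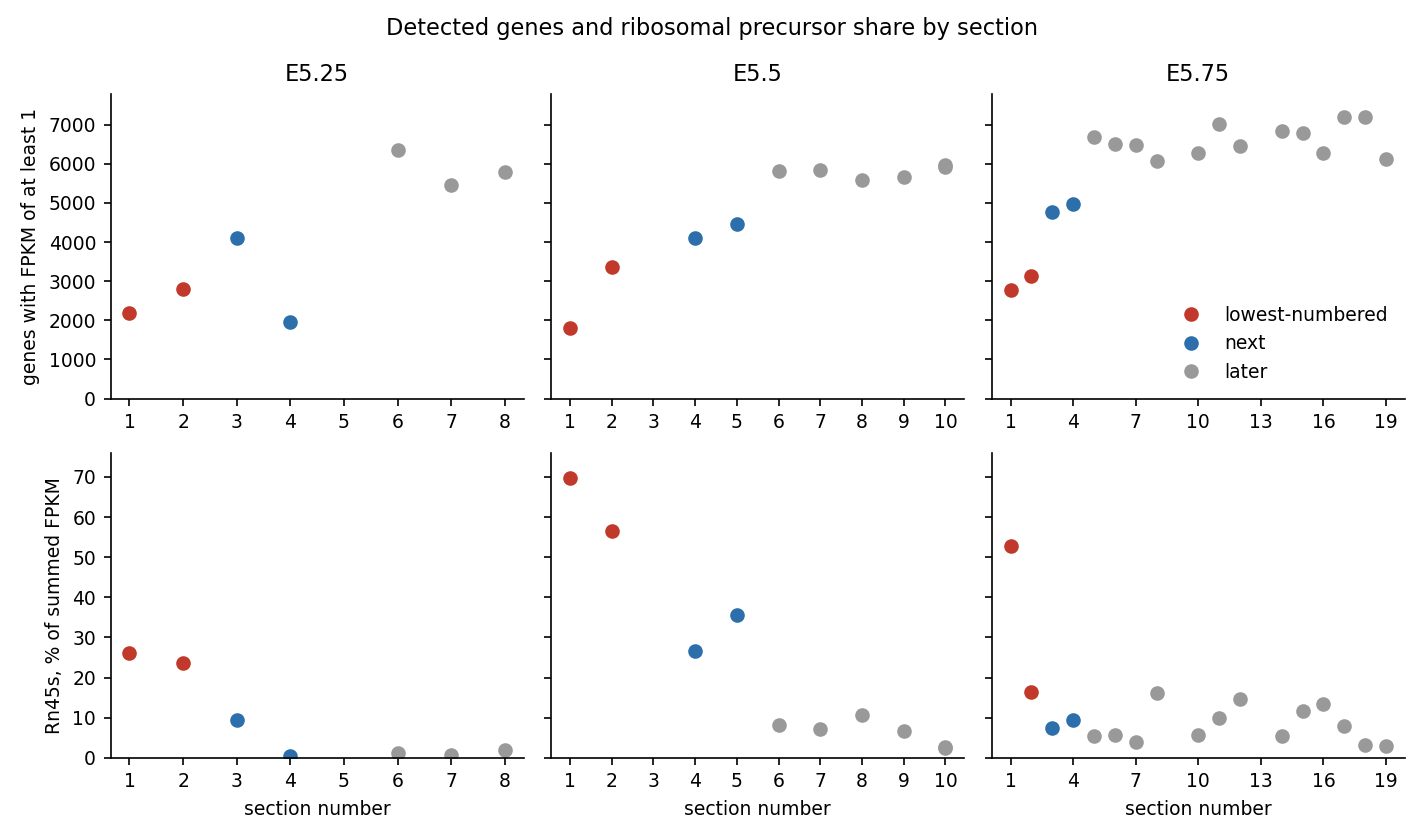
Number of genes with an FPKM of at least 1 among the 8832 shared genes (top) and share of Rn45s in the summed FPKM in percent (bottom), against section number, for each stage, with 1 point a column of the deposited tables (red, first sections; blue, next; grey, later). In the top row the red points lie below the grey, and E5.25 section 4 (blue, 1960 genes, 0.555%) stands apart from the other blue points.

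The detected genes of the first sections overlapped in part. At E5.25, 1186 genes were detected in both sections 1 and 2, which is 54.4% of those of section 1 and 42.3% of those of section 2. At E5.5 it was 1115 genes, 62.1% and 33.2%, and at E5.75 1681 genes, 60.7% and 53.8%. The next sections of E5.25 shared 35.4% and 74.1% of theirs, those of E5.5 71.4% and 65.8%, and those of E5.75 76.5% and 73.5%. Section 1 shared a larger part of its genes with each next section than with section 2 at E5.5 (65.6% and 68.2%) and at E5.75 (75.1% and 76.02%). At E5.25 this held for section 3 (63.7%) and not for section 4 (39.2%). The order followed the number of genes the partner detected. That was 3362 in section 2 against 4110 and 4459 in the next sections of E5.5, 3122 against 4772 and 4967 at E5.75, and 2801 against 4100 and 1960 at E5.25. These shares therefore do not rank which section is most like section 1. Fewer cells in a piece and less RNA per cell cannot be told apart in such bulk samples.

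Detection was lower for genes at low levels and, at a fixed level, for genes with short transcripts. Among genes found in both E5.75 next sections at a mean log2(FPKM + 1) of 1 to 3, section 1 detected 38.9% and section 2 43.7%; above 9 they detected 96.8% and 100%. At a fixed level of 5 to 7, genes with transcripts under 1000 bases were detected at 46.7% in section 1 and 68.0% in section 2, and those of 4000 bases and over at 89.2% and 100%. E5.25 and E5.5 showed the same order, with 41.9% against 93.8% in E5.25 section 1 (86 and 16 genes) and 38.7% against 90.0% in E5.5 section 1 (93 and 10 genes). Without those 2 longest groups, which hold under 20 genes, the share at 2000 to 4000 bases was 77.6% and 81.2%. Over all levels together the share did not rise steadily with length. In E5.75 section 2 it was 60.6% under 1000 bases, 53.7% at 1000 to 2000, 61.2% at 2000 to 4000 and 64.0% at 4000 and over.

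**Figure D2:**
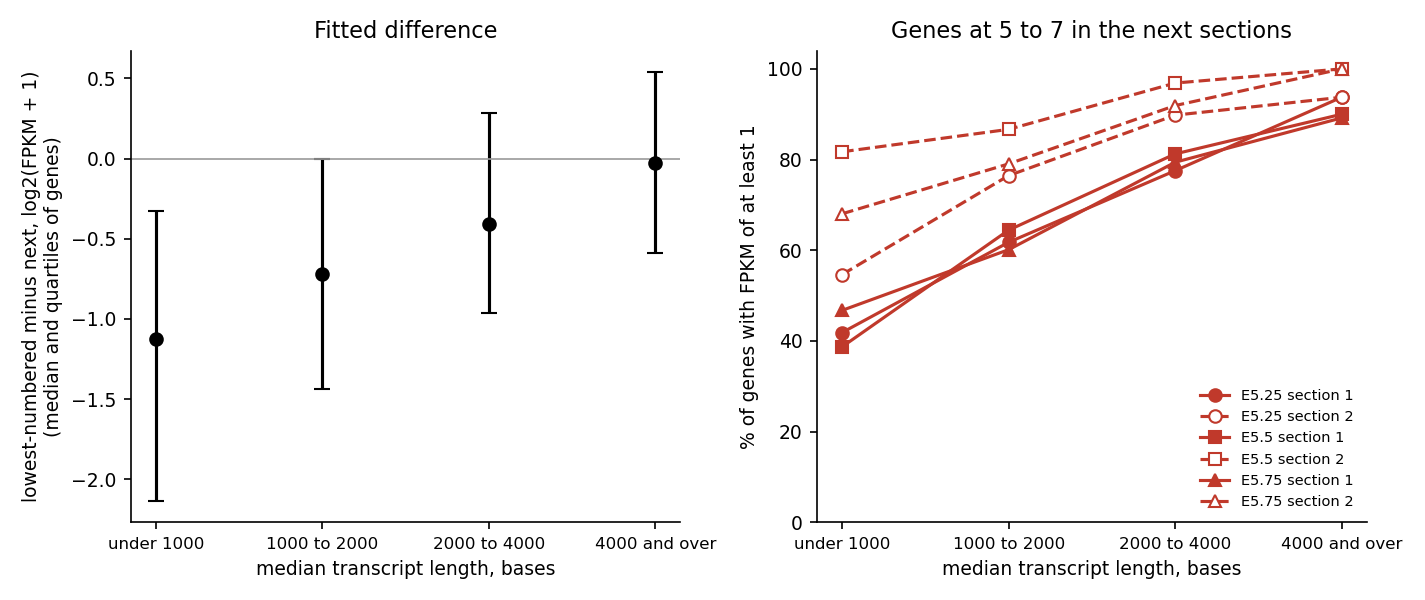
Left, fitted difference of the first minus the next sections on the log2(FPKM + 1) scale by transcript length, as the median and quartiles of the genes in each class; right, share of genes detected in each first section among genes whose mean in the next sections of that stage was 5 to 7, by transcript length. The median rises from −1.13 under 1000 bases to −0.03 at 4000 bases and over, and in the right panel each line is higher at its right end than at its left.

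Across genes, 10 were higher and 146 lower in the first sections, out of 7078 tested with limma over the 12 columns with stage as a block (Benjamini-Hochberg adjusted p under 0.05, 0.141% and 2.06% of genes tested). At an unadjusted p under 0.05 there were 1347. The median fitted difference of all genes was −0.48, so single differences are read against that shift. A second count asked at each stage for both first sections above both next sections by a mean of at least 1. By it 517 genes (7.3%) were higher and 884 (12.5%) lower at E5.25. At E5.5 these were 395 (5.58%) and 1884 (26.6%), and at E5.75 they were 479 (6.77%) and 2050 (29%). At 2 or more stages 190 genes were higher (2.68% of genes tested) and 1127 lower (15.9%), and at all 3 stages 37 were higher (0.523%) and 192 lower (2.71%).

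The 190 were spread evenly over pairs of stages. There were 49 at E5.25 and E5.5 only, 56 at E5.25 and E5.75 only, 48 at E5.5 and E5.75 only, and 37 at all 3. At the remaining stage 18 of the 190 were lower by the same measure. All 10 genes that passed limma were among the 37, and 2 of the 10 and 5 of the 37 are unnamed gene models. No gene's difference depended on stage by the limma interaction test (0 genes, 0%; smallest adjusted p 0.692; 430 at an unadjusted p under 0.05).

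The limma calls rest on single sections and on the scaling. Higher genes numbered 6, 5 and 5 without E5.25 section 1, 2 or 3, then 1, 4 and 5 without E5.5 section 1, 4 or 5, and 3, 19, 6 and 2 without E5.75 section 1, 2, 3 or 4. Lower genes numbered 94 without E5.25 section 3, 58, 83 and 78 without E5.5 section 1, 4 or 5, and 81, 60 and 48 without E5.75 section 1, 3 or 4. Quantile normalization gave 16 higher and 76 lower genes, so that 17.4% of calls were higher against 6.41%, and all 76 were among the 146. With detected genes as a covariate 1 gene was higher and 12 lower, 11 of them among the 146. With section 2 alone in place of both, 0 genes were higher and 88 lower by limma; with section 1 alone, 34 and 238. Without E5.25 section 4 and section 1 of E5.5 and E5.75 together, 2 were higher and 57 lower.

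The genes at the top of the fit encode ribosomal precursor RNA and a mitochondrial enzyme. Rn45s was at 15.69 and 15.31 log2(FPKM + 1) in the E5.25 first sections against 13.30 and 9.63 in the next, at 18.61 and 16.32 against 14.91 and 15.51 at E5.5, and at 18.41 and 14.76 against 13.76 and 14.27 at E5.75. No stage overlapped, and section 1 was the highest column at each. The fitted difference was 2.95 ± 0.51 (SE; limma, adjusted p = 0.00258), and it passed with any 1 of the 12 columns left out (adjusted p up to 0.024). It missed the threshold in 4 of 27 alternatives: section 2 alone (1.90, adjusted p = 0.0809), no filter (adjusted p = 0.181), eBayes without trend (adjusted p = 0.0609) and the detected gene number as covariate (3.76, adjusted p = 0.0639). Without E5.25 section 4 and section 1 of E5.5 and E5.75 together it was 1.35, the lowest value (adjusted p = 0.0178).

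Lars2, the mitochondrial leucyl-tRNA synthetase (GRCm38 chr9:123366927-123462666, plus strand, 21 exons), reached 15.84 and 15.31 at E5.25 against 13.08 and 5.5, 15.81 and 13.58 at E5.5 against 11.56 and 12.34, and 17.04 and 11.99 at E5.75 against 10.88 and 11.97. At E5.75 section 2 and section 4 differed by only 0.02, so the gap there is that of section 1. The fitted difference was 4.04 ± 0.86 (SE; limma, adjusted p = 0.0164). The call was lost in 9 of 29 alternatives. They include the fits without section 1 of E5.5 (3.92, adjusted p = 0.0588) and without section 1 of E5.75 (3.53, adjusted p = 0.0563), quantile normalization (2.36, adjusted p = 0.215) and section 2 alone (2.74, adjusted p = 0.249, the highest). Without E5.25 section 4 and section 1 of E5.5 and E5.75 together it was 1.56 (adjusted p = 0.0416). Lars2 alone took 29.0% of the summed FPKM of E5.25 section 1 and 20.4% of E5.75 section 1, against 0.031% to 8.19% in the next sections. The positions of its reads are not known here. Whether these values reflect messenger RNA of the enzyme was not tested.

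The other named genes that passed limma are not known markers of early embryonic tissue. Olfr856-ps1 (chr9:19657057-19658647, minus strand, a pseudogene) and Olfr613 (chr7:103548074-103555506, plus strand) belong to the olfactory receptor family, and Vmn1r58 (chr7:5401681-5413396, minus strand) to the vomeronasal receptors, which detect odours and pheromones in sensory neurons. Vmn1r58 was at 6.55 and 6.93 at E5.25 against 1.57 and 2.78, at 7.09 and 5.44 at E5.5 against 3.80 and 2.61, and at 3.78 and 3.08 at E5.75 against 1.58 and 0.27. Both first sections were above both next ones at each stage, by 3.38 ± 0.80 overall (SE; limma, adjusted p = 0.0257). Olfr856-ps1 differed by 3.40 ± 0.80 (adjusted p = 0.0254) and Olfr613 by 3.06 ± 0.79 (adjusted p = 0.0386). These are large families of similar genes, and how the authors' counting shared reads among copies is not given in the sources used here.

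A doublecortin, a zinc finger and a reader of methylated RNA also passed. Dcdc2c, a doublecortin-domain gene, was at 8.37 and 8.39 against 3.41 and 5.58 at E5.25, at 8.27 and 6.13 against 3.27 and 4.37 at E5.5, and at 6.94 and 4.24 against 3.73 and 1.87 at E5.75 (3.35 ± 0.79, SE; limma, adjusted p = 0.0257). Zfp488, a zinc finger gene, was at 9.48 and 9.74 against 5.07 and 6.94, at 11.19 and 8.98 against 7.14 and 7.62, and at 8.07 and 5.66 against 4.94 and 4.62 (2.80 ± 0.66, SE; limma, adjusted p = 0.0257). Ythdc1 binds methylated adenosine in nuclear RNA; its columns were 7.86 and 7.66 against 5.02 and 3.61, 9.45 and 7.10 against 4.04 and 6.06, and 8.87 and 7.48 against 7.40 and 6.10 (2.70 ± 0.72, SE; limma, adjusted p = 0.0453). Of the 12 single columns, the number whose removal ended the call was 3 for Olfr856-ps1, 5 for Vmn1r58, 5 for Dcdc2c, 6 for Zfp488, 9 for Olfr613 and 10 for Ythdc1. E5.5 section 1 was among them for all 6, which kept a positive difference of at least 2.34 throughout.

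**Figure D3:**
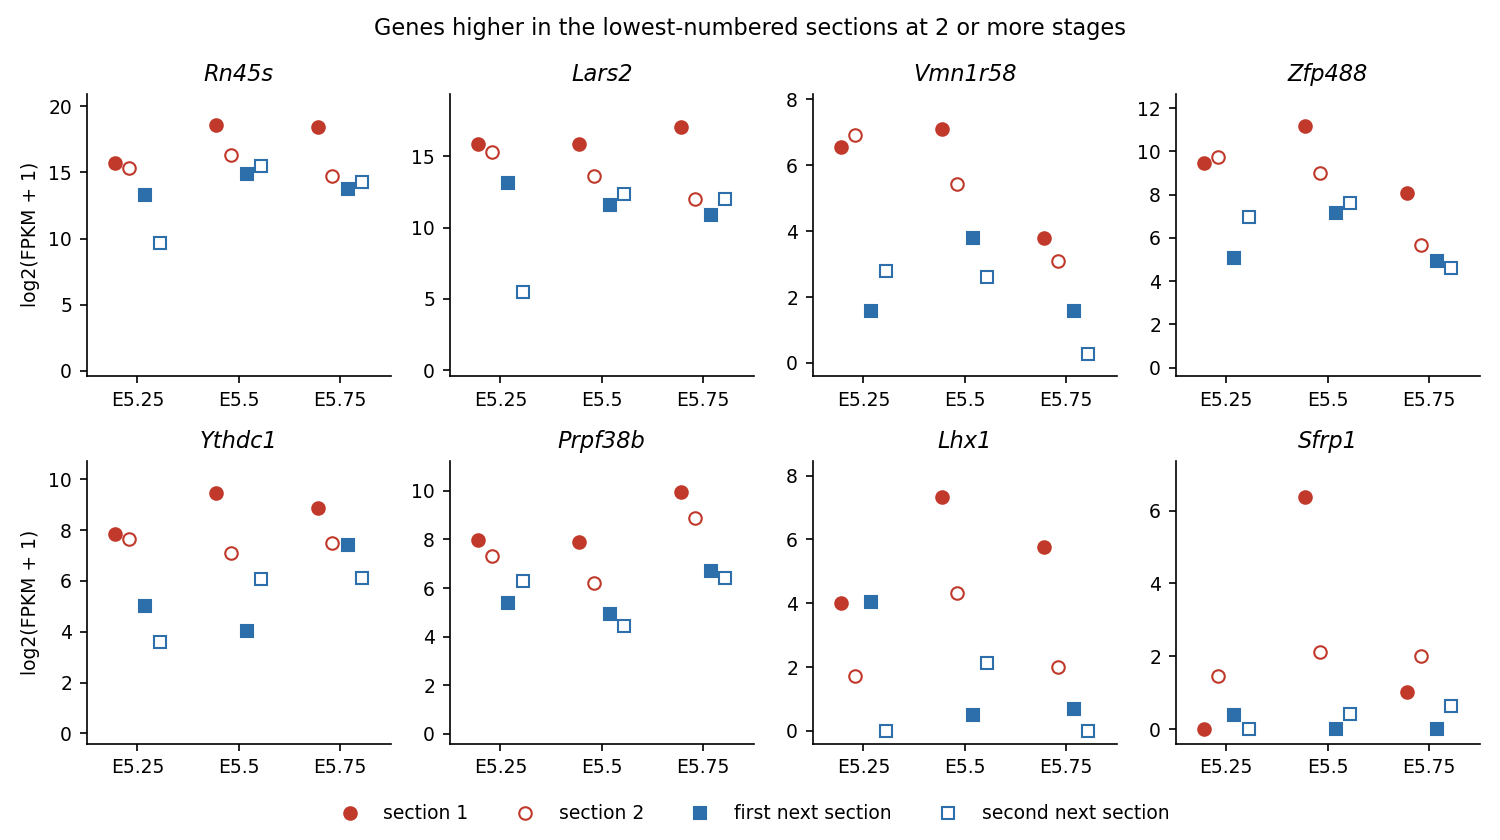
Values on the log2(FPKM + 1) scale of 8 genes higher in the first sections at 2 or more stages, 1 panel a gene, by stage, with section 1 (filled) and section 2 (open) as red circles and the first (filled) and second (open) of the next sections as blue squares. Red lies above blue at all 3 stages for the first 6 genes, and at 2 stages for Lhx1 and Sfrp1.

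Several genes of pre-mRNA splicing were among the 37; they were singled out after their values were seen. Rbm25, a splicing regulator, was at 8.64 and 8.32 at E5.25 against 6.97 and 7.0, at 7.90 and 7.56 at E5.5 against 5.5 and 6.12, and at 10.18 and 8.56 at E5.75 against 7.23 and 7.76. Prpf38b, a spliceosome factor, was at 7.96 and 7.33 against 5.39 and 6.31, 7.91 and 6.21 against 4.93 and 4.46, and 9.93 and 8.87 against 6.69 and 6.42, and missed the threshold (2.34 ± 0.65, SE; limma, adjusted p = 0.0557), which it passed without E5.25 section 4 (2.52, adjusted p = 0.0381) or E5.5 section 2 (2.54, adjusted p = 0.0471). Srrm1 and Srrm2, scaffold proteins of splicing, Prpf4b, a kinase of the spliceosome, and Sfpq, a nuclear splicing factor, were likewise above both next sections at all 3 stages. The wider family, also drawn up after the values were seen, was mixed. Of 50 tested genes whose names begin with Srsf, Srrm, Prpf or Rbm, 5 were higher and 5 lower at all 3 stages (0.523% and 2.71% of all genes tested), and 6 were higher and 12 lower at 2 or more (2.68% and 15.9%). By limma 0 passed as higher and 3 as lower, and the median difference was −0.50, against −0.48 for all genes. Srsf2, a core SR splicing factor, was at 0 and 2.09 at E5.25 against 5.72 and 6.05, at 0 and 2.40 against 4.34 and 3.98 at E5.5, and at 0 and 5.53 against 6.43 and 5.90 at E5.75.

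Long non-coding RNAs kept in the nucleus moved less. Malat1, an abundant RNA of nuclear speckles, was at 9.40 and 9.12 against 8.71 and 8.98 at E5.25, 10.79 and 9.33 against 8.25 and 8.60 at E5.5, and 11.31 and 10.42 against 9.21 and 9.28 at E5.75. It counted as higher at 2 stages and did not pass limma (1.22 ± 0.48, SE, adjusted p = 0.182). Kcnq1ot1, an imprinted antisense RNA, was higher at the earlier 2 stages only, and without stated strand it cannot be told from Kcnq1. Of the 9 tested members of the nuclear and non-coding list, 2 passed limma as higher, Rn45s and Lars2, of which Lars2 is a protein-coding gene that the list's name does not describe. None passed as lower, 4 were higher at 2 or more stages and 1, Tsix, the antisense partner of Xist, was lower. Of all genes tested 0.141% passed limma as higher and 2.06% as lower. At 2 or more stages 2.68% were higher and 15.9% lower. The list's median was 0.88, and it fell to 0.00 with detected genes as a covariate.

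Among the other genes higher at all 3 stages were genes of several unrelated roles. Phf14, a chromatin reader, was at 3.71 and 4.07 against 1.64 and 0 at E5.25, 5.95 and 3.49 against 0.60 and 2.75 at E5.5, and 4.75 and 4.14 against 0.32 and 3.08 at E5.75. Cplx2, a regulator of vesicle release, was at 4.89 and 3.37 against 1.03 and 1.82, 5.39 and 2.98 against 1.03 and 1.69, and 7.01 and 5.55 against 2.60 and 3.57. Neither passed limma (2.95 ± 0.84, adjusted p = 0.0646, and 2.91 ± 0.80, adjusted p = 0.0547; SE), but both did without E5.5 section 2 (3.25 and 3.22, adjusted p = 0.04996 and 0.0428). Genes of cell division were among the 37: Tyms, which makes thymidylate (2.02 ± 0.77, SE, limma adjusted p = 0.172), Spc24, of the kinetochore (1.87 ± 0.69, adjusted p = 0.153), and Cdk11b, a kinase (1.98 ± 0.71, adjusted p = 0.141). The cell cycle list as a whole lay the other way, with 12 of 22 tested members lower at 2 or more stages and a median of −1.69. Of all genes tested 15.9% were lower at 2 or more stages. Erdr1 and the major histocompatibility gene H2-Q4, both with near-identical copies and so uncertain, differed by 3.0 ± 0.90 and 2.38 ± 0.77 (SE; limma, adjusted p = 0.0803 and 0.102), and Erdr1 passed without E5.25 section 3 (3.76, adjusted p = 0.0289). The fitted differences of the 37 ran from 1.23 to 4.04, and their adjusted p reached 0.345.

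Within the first sections, section 1 carried the larger values of the 37 genes at E5.5 and E5.75. Of the 37, section 1 exceeded section 2 for 35 at E5.5 and 34 at E5.75, with medians of the difference of 1.70 and 1.38, but for 23 at E5.25, with a median of 0.20. The columns themselves were of unequal size. The whole column summed to an FPKM of 571857 in section 1 against 144599 in section 2 at E5.5. It summed to 659683 against 169792 at E5.75 and to 202387 against 172155 at E5.25. Without Rn45s the sums were 172541 against 62988 at E5.5, 311326 against 141977 at E5.75, and 149454 against 131413 at E5.25. The part of these totals in the differences was not tested. The 37 had to lie above both next sections in both columns and are listed at 0 in neither, so no other set of genes was compared with them.

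Of the markers of the distal and anterior visceral endoderm, Lhx1 and Sfrp1 stood higher at 2 stages, and the list as a whole was mixed. Lhx1 (chr11:84518284-84525535, minus strand, 5 exons) was at 4.0 and 1.71 at E5.25 against 4.03 and 0, at 7.32 and 4.32 at E5.5 against 0.48 and 2.12, and at 5.8 and 1.99 at E5.75 against 0.69 and 0. The groups overlapped at E5.25 only. The fitted difference of 2.96 ± 0.98 (SE) did not pass limma (adjusted p = 0.11). It passed in 3 of 29 alternatives: without E5.25 section 3 (3.73, adjusted p = 0.04997), with section 1 alone (4.47, adjusted p = 0.0197) and against every later section (3.67, adjusted p = 5.34e-07). In the other 26 it did not pass, with limma adjusted p up to 0.669. The fit against every later section is a different contrast, in which 431 genes were higher and 2992 lower. Sfrp1, a secreted Wnt inhibitor, was at 0 and 1.47 against 0.40 and 0, at 6.38 and 2.11 against 0 and 0.40, and at 1.01 and 2.01 against 0 and 0.63 (1.92 ± 0.84, SE; limma, adjusted p = 0.226). Fzd5, a Wnt receptor listed at E5.5 and E5.75 only and so not tested, was at 2.56 and 1.95 against 0.18 and 0.76, and at 3.61 and 2.84 against 0 and 0.05. Amot, an angiomotin of cell junctions and motility, was higher at E5.25 and at E5.75.

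Other members of that list were near 0 or lower. Cer1 was listed at 0 in 5 of the 6 first columns and at 3.22 in E5.5 section 1. Hhex was listed at 0 in 5 of 6 and at 4.48 in E5.25 section 2. Otx2, shared with the epiblast, was at 0 and 0 at E5.25 against 4.89 and 3.68, at 0 and 0.70 at E5.5 against 3.96 and 2.29, and at 4.13 and 2.70 at E5.75 against 1.89 and 5.33. Of 8 tested members 3 were higher and 3 lower at 2 or more stages (Otx2, the Wnt receptor Fzd7 and the Nodal co-receptor Tdgf1), 0 passed limma in either direction, and the median was 0.46 against −0.48 for all genes. At 2 or more stages 2.68% of all genes tested were higher and 15.9% lower. Tdgf1, like Otx2, is shared with the epiblast, and Fzd7 also stands on the Wnt pathway list. Among the higher members, Lhx1 also stands on the primitive streak list and Sfrp1 on the Wnt pathway list. Members that went either way are thus not particular to this list. At an unadjusted p under 0.05 there were 5 of the 8. The summed FPKM of the list ran from 18.4 to 261 in the first sections and from 21.6 to 87.3 in the next. The 261 was in E5.5 section 1, whose whole column summed to 571857, against 105636 to 208380 in the next columns. Without Rn45s that column summed to 172541, against 84565 to 188562 in the next columns.

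Markers of the whole visceral endoderm gave a similar picture. Their summed FPKM was 140 to 1256 in the first sections and 59.9 to 531 in the next. The 1256 was in E5.5 section 1, whose whole column summed to 571857, and the 531 in E5.25 section 3, whose column summed to 105636. Without Rn45s these 2 columns summed to 172541 and 95556. Of 23 tested members 16 had a difference above 0 and the median was 0.57, but 0 were higher at 2 or more stages, 0 passed limma as higher and 1 as lower. Of the 7078 genes tested 2301 had a difference above 0. At 2 or more stages 2.68% were higher, and 2.06% passed limma as lower. Apob, a lipoprotein component, was at 3.63 and 1.05 against 1.48 and 0 at E5.25, at 4.44 and 2.65 against 0.75 and 1.27 at E5.5, and at 1.35 and 0 against 1.02 and 0.10 at E5.75. Apoa1, another, was at 2.26 and 4.88 against 6.50 and 3.18, at 8.86 and 3.09 against 0.76 and 3.83, and at 6.97 and 3.06 against 2.29 and 0.97. Cldn6, a tight junction gene, passed limma as lower; it was listed at 0 in 5 of 6 first columns and reached 4.58, 4.27 and 6.52 in a next section of each stage (−3.50 ± 0.91, SE, adjusted p = 0.0386). The call was lost for 7 of the 12 columns left out singly, with adjusted p up to 0.126.

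Of 20 tested epiblast markers 12 were lower and 0 higher at 2 or more stages (15.9% and 2.68% of all genes tested), 1 passed limma as lower, and the median was −1.61 against −0.48 for all genes. Housekeeping genes moved as far in the same columns, with 10 of 17 lower and a median of −1.69. Pou5f1, which encodes OCT4, was listed at 0 in section 1 of all 3 stages and was at 6.71, 3.30 and 6.17 in section 2, against 5.65 and 5.49, 5.68 and 4.76, and 6.67 and 7.30 in the next sections. Section 2 lay above both next sections at E5.25 and below both at E5.5 and E5.75. The difference did not pass (−3.23 ± 1.09, SE; limma, adjusted p = 0.115). It passed without E5.25 section 2 (−4.20, adjusted p = 0.0289) and with section 1 alone (−5.92, adjusted p = 0.00061), and against every later section it was 0.15. Utf1, a chromatin factor of pluripotent cells, was at 0 in section 1 of each stage and at 0, 3.61 and 1.20 in section 2, against 2.98 and 3.09, 4.38 and 3.91, and 4.26 and 5.39 (−3.20 ± 0.83, SE; limma, adjusted p = 0.0386). The Utf1 call was lost for 10 of the 12 columns left out singly, with adjusted p up to 0.123. Dppa5a, a small gene of naive pluripotency, was at 7.99 and 8.24 against 8.58 and 9.32 at E5.25, then 0 and 2.08 against 8.18 and 7.13, and 0 and 0 against 7.40 and 7.93 (−5.04 ± 0.93, SE; limma, adjusted p = 0.00436). Tdgf1 differed by −2.60 ± 0.95 and Otx2 by −2.42 ± 0.89 (SE; limma, adjusted p = 0.147 and 0.153), and Tdgf1 passed without E5.75 section 2 (−3.47, adjusted p = 0.028).

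Markers of other cell types appeared in some first sections. Of decidual markers 3 were tested, and 0 passed limma or counted at 2 stages. At 2 or more stages 2.68% of all genes tested were higher and 15.9% lower. The decidual prolactin gene Prl8a2 was listed at 0 in 5 of 6 first columns and the decidual matrix gene Dcn, listed at E5.25 and E5.75, in all 4. Prl8a2 was at 1.97 in E5.75 section 1, but at 2.88 in E5.5 section 5 and 3.90 in E5.75 section 3, both next sections. Others, named after their values were seen, were high in first sections. The oestrogen receptor gene Esr1 was at 4.89 and 4.89 at E5.25 against 0 and 0, and the uterine transcription factor gene Hoxa10 at 5.08 and 1.64 at E5.5 against 0 and 0. In section 1 the transcription factor gene Hand2 was at 5.69 at E5.5 and 5.44 at E5.75, with at most 1.71 in the next sections. The progesterone receptor gene Pgr was at 3.73 in section 1 at E5.25. The intermediate filament gene Des was at 6.74 and 0.60 at E5.5 against 0 and 0.98. At E5.75 Des went the other way, at 0 and 0 against 0 and 3.24. Alpha globin, a joint entry Hba-a1Hba-a2, was listed at 0 in all 4 columns at E5.25, at 8.60 and 2.80 at E5.5 against 3.39 and 5.12, and at 7.87 and 0 at E5.75 against 5.45 and 5.42. The summed FPKM of the decidua list ran from 0 to 106 in the first sections and 0 to 19.5 in the next, and that of the blood list from 0 to 386 and 0 to 44.1. That of parietal endoderm markers was 182 in E5.5 section 1 and 454 in E5.75 section 1, 5.20 to 28.9 in the other first columns and 9.25 to 66.0 in the next. The 106 and 386 were also in E5.5 section 1. The whole columns of E5.5 and E5.75 section 1 summed to 571857 and 659683, against 105636 to 208380 in the next columns. Without Rn45s they summed to 172541 and 311326, against 84565 to 188562 in the next columns. Of 9 parietal endoderm markers tested 1 was higher at 2 or more stages, Pth1r, the parathyroid hormone receptor, at 6.50 and 3.21 against 0 and 1.82 at E5.5 and 8.34 and 3.01 against 1.60 and 0 at E5.75 (2.62 ± 1.07, SE; limma, adjusted p = 0.198). Extraembryonic ectoderm had 6 tested markers, 0 of them counted in either direction, with a summed FPKM of 8.65 to 84.0 in the first sections and 0.129 to 29.1 in the next. Their part in the differences above was not tested.

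**Figure D4:**
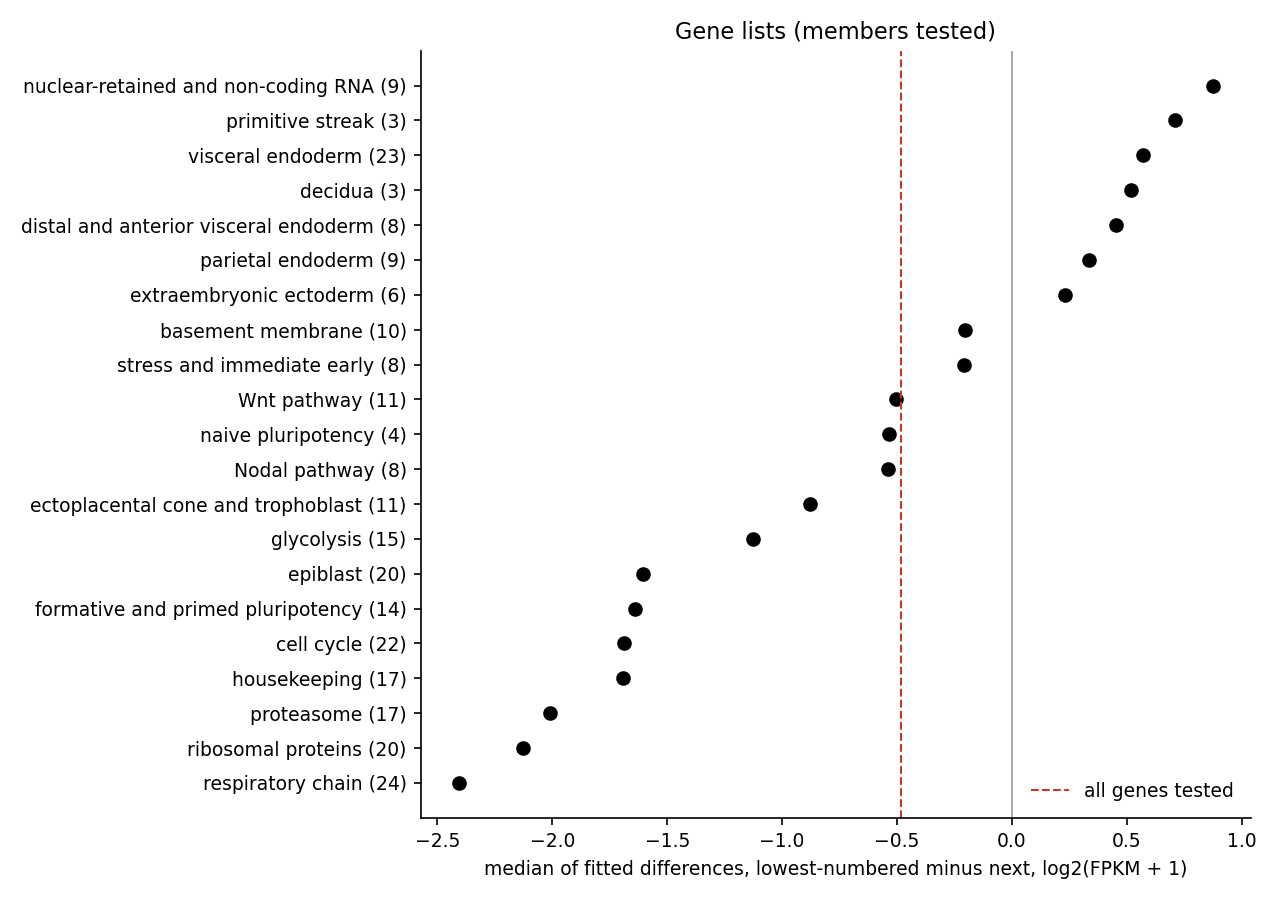
Median fitted difference of the first minus the next sections on the log2(FPKM + 1) scale for each gene list with at least 3 tested members, whose number stands in brackets, with the median of all genes tested, −0.48, as a dashed line. Lists for the respiratory chain, ribosomal proteins and the proteasome lie lowest, between −2.41 and −2.01, and the nuclear and non-coding list lies highest at 0.88.

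The genes that passed limma as lower were led by short transcripts of the basic machinery of every cell. Snrpe, a core protein of spliceosomal particles (chr1:133603871-133610291, minus strand, transcript length 503 bases), was listed at 0 in 5 of the 6 first columns and at 2.67 in E5.75 section 2, against 7.61 and 9.89, 5.73 and 6.17, and 8.40 and 7.71 in the next sections. The difference was −7.14 ± 0.83 (SE; limma, adjusted p = 3.64e-05). Its partner Snrpg was at 0 in 4 of 6 first columns and at 2.34 in E5.5 section 2, but at 8.46 in E5.25 section 1, level with the next sections at 7.36 to 8.60 (−6.28 ± 1.08, SE; limma, adjusted p = 0.00258). Of 22 tested genes for core spliceosomal proteins 12 were lower at 2 or more stages (15.9% of all genes tested), 4 passed limma as lower (2.06% of all) and the median was −2.60. Polr2k, a shared subunit of the RNA polymerases, was at 0 in 5 first columns and 3.75 in E5.75 section 2, against 1.74 to 9.06 (−5.79 ± 0.96, SE; limma, adjusted p = 0.00213).

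Ribosomal, mitochondrial and proteasome genes followed. Rps28 was at 0 and 4.05 against 9.90 and 9.88 at E5.25, 0 and 6.95 against 9.12 and 9.18 at E5.5, and 3.99 and 9.41 against 10.50 and 10.44 at E5.75 (−5.77 ± 1.04, SE; limma, adjusted p = 0.00347). Section 1 was below section 2 at every stage. Of 89 tested cytosolic ribosomal protein genes 51 were lower at 2 or more stages and 0 higher (15.9% and 2.68% of all genes tested), 13 passed limma as lower (2.06% of all), and the median was −1.82. Such genes have many pseudogenes, so their levels are uncertain.

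In the respiratory chain list 4 of 24 members passed limma as lower, 11 were lower and 0 higher at 2 or more stages, and the median was −2.41. Of all genes tested 2.06% passed limma as lower, and 15.9% were lower and 2.68% higher at 2 or more stages. Cox8a, a subunit of cytochrome c oxidase, was at 0 and 0 against 5.38 and 5.65 at E5.25, 0 and 2.62 against 6.72 and 7.18 at E5.5, and 0 and 3.50 against 4.63 and 7.29 at E5.75 (−5.12 ± 0.87, SE; limma, adjusted p = 0.00213). Atp5l and Usmg5, both of ATP synthase, differed by −5.71 ± 0.83 and −6.01 ± 0.99, and Tomm5, of the mitochondrial import pore, by −5.48 ± 0.90 (SE; limma, adjusted p = 0.000622, 0.00213 and 0.00213). In the proteasome list 4 of 17 passed as lower and 9 were lower at 2 or more stages, with a median of −2.01. Its leading member Psmb1, a core subunit, was listed at 0 in 5 first columns and at 6.49 in E5.25 section 1, against 3.68 to 7.35 in the next sections (−4.68 ± 0.97, SE; limma, adjusted p = 0.013). Psme2, a proteasome activator, and Shfm1, a small protein of the proteasome lid, differed by −5.27 ± 0.89 and −5.57 ± 0.89 (SE; limma, adjusted p = 0.00213 each). All of Snrpe, Snrpg, Polr2k, Rps28, Rpl22l1, Cox8a, Atp5l, Usmg5, Tomm5, Psmb1, Psme2, Shfm1 and Dppa5a still passed when any 1 column was left out.

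**Figure D5:**
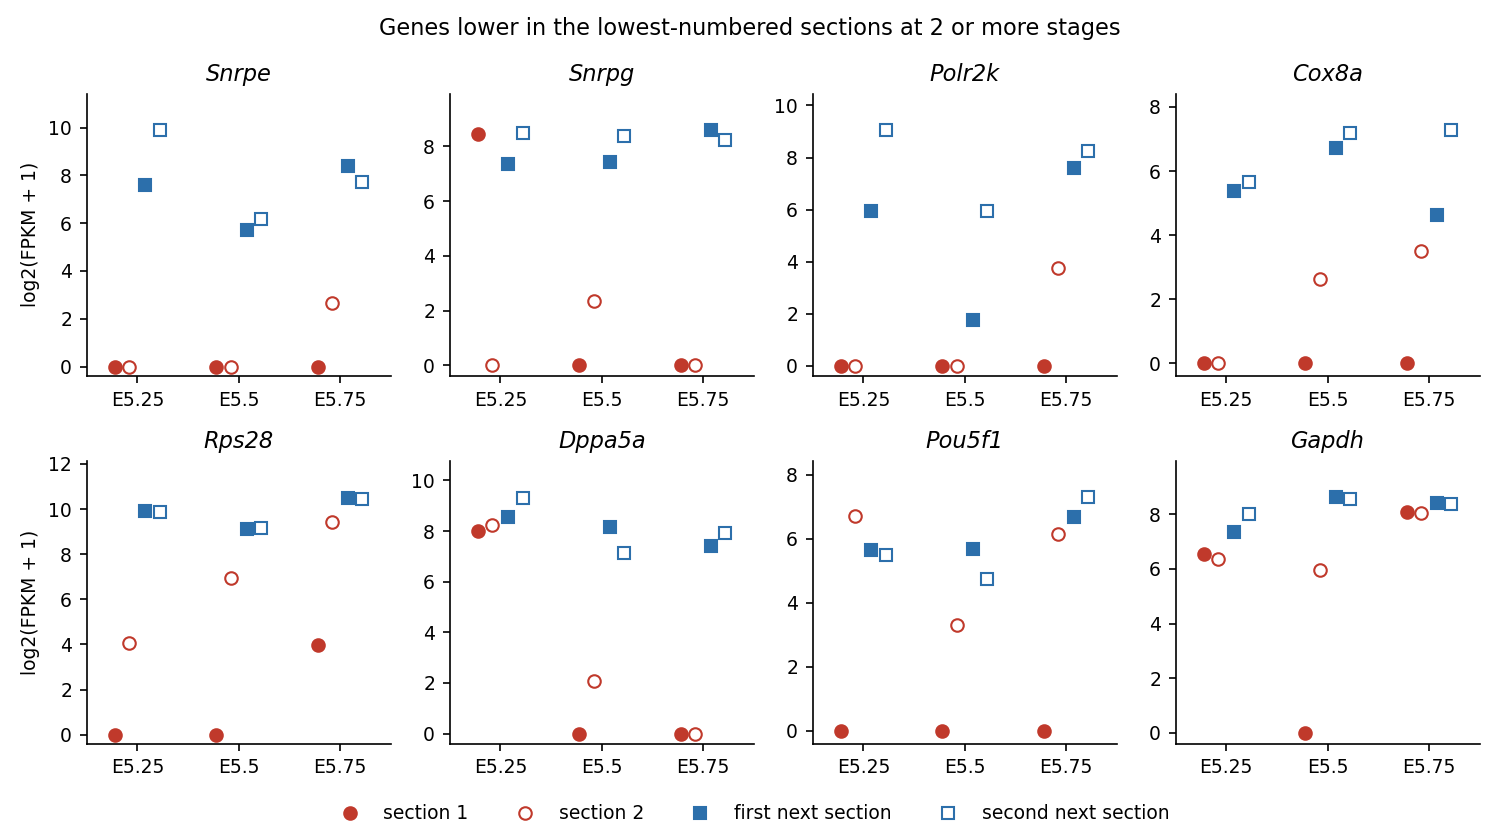
Values on the log2(FPKM + 1) scale of 8 genes lower in the first sections at 2 or more stages, drawn as for the higher genes. Section 1 (filled red) is listed at 0 at all 3 stages for Snrpe, Polr2k, Cox8a and Pou5f1, while Snrpg at E5.25 (8.46) and section 2 for Pou5f1 at E5.25 (6.71) reach the level of the blue squares.

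Genes used by all cells were also low, or listed at 0, in single sections. Gapdh, of glycolysis, was at 6.54 and 6.36 against 7.35 and 8.01 at E5.25, 0 and 5.98 against 8.62 and 8.58 at E5.5, and 8.08 and 8.05 against 8.40 and 8.38 at E5.75, and did not pass limma (−2.39 ± 0.90, SE, adjusted p = 0.164). Since Gapdh is listed at 0 in E5.5 section 1, a 0 in these columns cannot be read as the absence of a transcript. Actb, cytoskeletal actin, was listed above 6 in every column and was lower at all 3 stages, with differences of −1.84, −1.65 and −1.58, without passing (−1.69 ± 0.51, SE; limma, adjusted p = 0.0818). The tubulin gene Tuba1b passed (−3.56 ± 0.81, SE; limma, adjusted p = 0.0205), but not in 7 of 29 alternatives, among them the one without E5.5 section 4 (−3.33, adjusted p = 0.0609) and the one without the E5.5 stage (−2.98, adjusted p = 0.16, the highest). The replication helicase gene Mcm7 passed too (−3.49 ± 0.79, SE; limma, adjusted p = 0.0205), but not in 9 of 29 alternatives. Among these were the fits without E5.5 section 5 (−3.38, adjusted p = 0.0619) and without E5.75 section 4 (−3.16, adjusted p = 0.0852), that with a pseudocount of 5 (−1.85, adjusted p = 0.0639) and that with the detected gene number as covariate (−2.94, adjusted p = 0.303, the highest).

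Across all 146 lower genes, 126 were listed at 0 in none of the next columns, while 61 were at 0 in 5 or 6 of the first columns and 20 in all 6. Their median transcript length was 774 bases, against 2388 for all genes tested. By the count at 2 or more stages, it was 3166 for the 190 higher genes and 1593 for the 1127 lower. Of the genes under 1000 bases 8.83% passed as lower, against 0.137% of those of 4000 bases and over. Spearman's rho between the fitted difference and length was 0.333 over 6873 genes, all measured in the same 12 columns. FPKM divides by length, so a short transcript needs fewer reads for the same value, and the read depth of these columns is unknown. The part of length in the gene differences was not tested.

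The pattern was set beside 2 libraries that the comparison did not use, the E5.75 samples from sections 6 and 7 marked VE, the usual abbreviation for visceral endoderm, and the other libraries of the same sections. The VE libraries detected 1351 and 1957 genes, against 6511 and 6495, and Rn45s took 62.2% and 48.8% of their summed FPKM, against 5.7% and 3.89%. Of the 37 genes higher at all 3 stages 12 (32.4%) were above both partner libraries by a mean of at least 1, as were 2.66% of all genes tested, and 5 (13.5%) were lower. Of the 190, 37 (19.5%) were higher and 70 (36.8%) lower. Of the 146 lower genes 112 (76.7%) were lower, against 61.0% of all. Lars2 was at 15.99 and 15.01 in the VE libraries against 12.01 and 11.44, Rbm25 at 9.22 and 8.84 against 6.87 and 6.45, and Cplx2 at 8.58 and 5.04 against 2.16 and 1.22. Others went the opposite way: Phf14 was at 0 and 0 against 3.21 and 3.18, Sfpq at 4.57 and 2.53 against 6.25 and 6.32, and Dcdc2c at 0 and 3.43 against 3.79 and 4.35. Vmn1r58 overlapped, at 0 and 2.17 against 1.66 and 1.05. With 2 libraries a side from 1 embryo no test was made, and cell type and gene detection cannot be told apart in them.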

How the data were processed

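TopHat2 2.0.4, Cufflinks 2.0.2 and build mm10 appear in the submitters' processing notes, without roles; annotation and normalization are not given in the sources used here. The deposited tables, 1 per stage, hold log2 values of FPKM from the authors, with a further normalization that no source describes. They begin at 0 and were taken as log2(FPKM + 1). Without counts, neither the sequencing depth nor the precision it gives is known. At E5.5 the authors joined parts A and B of sections 2, 4 and 5 in a way not stated.

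Of 8832 genes in all 3 tables, 7078 reached an FPKM of 1 in 2 or more of 12 columns. They were fitted with limma 3.58.1 in R 4.3.3 (trended eBayes, 2-sided tests, Benjamini-Hochberg adjusted p under 0.05) and stage as a block, since each table was normalized separately. Differences are on the log2(FPKM + 1) scale with a pseudocount of 1, which understates changes of low genes. Single values per column were compared by exact permutation within stages (216 arrangements). The members and lists were chosen with earlier results of these data known, and 10 name families and the comparison with the VE libraries were added after the values were seen. Lists were described by counts and medians, without set tests. The rule for named genes took genes past the limma threshold as higher, the 10 largest lower ones with a mean FPKM of at least 5 in the next sections, the 15 with the largest smallest stage difference among genes higher at 3 stages, the 20 largest at 2 or more, up to 4 per list with the smallest p, and Rn45s, Gapdh and Actb. Rbm25, Srrm1, Srrm2, Prpf4b, Sfpq, Srsf2, Kcnq1ot1, Amot, Fzd5, Cer1, Hhex, Apoa1, Dcn, Esr1, Hoxa10, Hand2 and Pgr were named after their values were seen. Positions and median lengths of basic transcripts come from GENCODE M21 (GRCm38), matched for 97.3% of genes; Rn45s and Erdr1 were not matched.

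Alternatives were pseudocounts of 0.1 and 5, other filters, a common sum, quantile normalization, other eBayes settings, detected genes as a covariate, no block, other sets of sections or stages, and leaving out each column. On simulated data with 250 genes changed at each size, the fit recovered 0.4%, 0%, 10.8% and 40% of 2-, 4-, 8- and 16-fold changes. The simulated noise came from a fit with stage alone. Real differences between first and next sections therefore counted as noise, and recovery may be understated. The values of 1 gene are not reported here.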

Additional observations from a re-analysis of the deposited data

Results flagged for a closer look

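Among 94 groups of 6 columns, 16 held a column far from the other 5, by the ratio of its gap to the range. The usual chance rate of about 1 in 20 assumes normally distributed values and does not apply here. A group with 5 columns at 0 is flagged whatever the value of the sixth, and several genes were chosen as low in the first sections. In the first sections, values on the log2(FPKM + 1) scale that stood above the other 5 were 6.38 for Sfrp1 in E5.5 section 1, 3.96 for Tomm5 in the same column, 8.46 for Snrpg, 8.59 for Rpl22l1 and 6.49 for Psmb1 in E5.25 section 1, and 3.90 for Usmg5 in E5.25 section 2. E5.5 section 2 stood above for Utf1 (3.61), Cldn6 (0.50) and Ccne1 (1.40), and E5.75 section 2 for Snrpe (2.67) and Polr2k (3.75). For all of these but Sfrp1, most of the other first columns were listed at 0. Gapdh stood below the others at 0 in E5.5 section 1.

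In the next sections E5.25 section 4 stood below the others with 1960 detected genes, with Lars2 at 5.5 and with Erdr1 at 0.58. Ccne1 was listed at 0 in E5.25 section 3.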

How the results depend on the processing

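Counts are given as limma higher and lower, then higher at 2 or more stages, higher at 3, lower at 2 or more and lower at 3, where they moved by over 1.5 times from 10, 146, 190, 37, 1127 and 192. A pseudocount of 0.1 gave 281 lower; 5 gave 6 and 47, then 115, 534 (lower at 2 or more) and 92 (lower at 3). No filter gave 2 and 21, with 13 interaction genes; a mean FPKM of at least 5 gave 22 and 228, and 666 lower at 2 or more. A common sum without Rn45s gave 5 higher. Quantile normalization gave 16 and 76, then 485, 80, 647 and 118. Section 1 alone gave 34 and 238, then 669, 112, 2010 and 482, and section 2 alone 0 and 88, then 631 and 70. eBayes without trend gave 17 higher, detected genes as covariate 1 and 12, no stage block 2 and 64, and every later section 431 and 2992. Leaving out E5.25 gave 1 and 72, E5.5 2 and 31, and E5.75 62 lower. A stage difference of at least 2 gave 74, 13, 591 and 87, and of 1 whatever the overlap 601, 83, 2118 and 613. Leaving out E5.25 section 4 with section 1 of E5.5 and E5.75, chosen after seeing the data, gave 2 and 57, then 388, 1834 (lower at 2 or more) and 434. The causes were not tested.

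Leaving out single columns gave 1 to 19 higher and 48 to 177 lower by limma, 0 to 3 interaction genes, 196 to 319 and 28 to 58 higher at 2 or more and at 3 stages, and 1123 to 1679 and 196 to 381 lower. A stage left with 1 section in a group meets the no-overlap rule more easily. The difference in detected genes ran from −1746.67 to −1033.33, and that in the Rn45s share from 19.96 to 32.1 points. Of 1245 values of single genes under these alternatives 1001 kept direction and side of the threshold, 199 lost the call, 44 gained it, and 1 reversed: Pou5f1 stood at 0.15 against every later section.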
